A study of Mus musculus with 8 samples.

Results

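Retinoic acid is the signalling form of vitamin A, and 9 genes for its synthesis, binding, clearance and reception were followed in nuclei of the inhibitory, GABAergic neurons of mouse cortex. They were Rara, Rarb, Rarg, Aldh1a1, Aldh1a2, Aldh1a3, Cyp26b1, Rbp4 and Crabp1, chosen by symbol out of 55450 genes in the count tables. All 9 were found, each under 1 gene identifier. The study compared 4 control mice, of genotype Thra+/+, with mice of genotype Thra+/AMI, which carry 1 mutated Thra allele by that notation. That mutation makes the thyroid hormone receptor TRα1 dominant negative, so that it blocks the response to thyroid hormone. In both groups fluorescent nuclei were sorted from the cortex of single juvenile mice, and a Cre driver limited both the nuclear reporter and the mutant receptor to GABAergic neurons. The name of the Cre driver and the age in days were not given in the sources used here. The tables of mutants 7 and 10 differed in 0 of 55220 compared genes, 21975 of them with reads, which is below sampling noise, so the pair entered as 1 sample. Comparisons are therefore between 4 controls (numbered 1 to 4) and 3 mutants (6, 7 and 8).

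Retinol travels in blood bound to RBP4 and is taken into cells, where dehydrogenases oxidise it to retinal and the ALDH1A enzymes oxidise retinal to retinoic acid. Inside the cell CRABP proteins bind retinoic acid and CYP26 enzymes break it down. Retinoic acid acts through the receptors RARα, RARβ and RARγ, which bind DNA together with RXR, the same partner that thyroid hormone receptors use. The typical RAR binding site is a direct repeat of a short half-site with a spacer of 5 bases (DR5), whereas the thyroid hormone receptor typically binds a repeat with a spacer of 4 (DR4).

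The promoters of these genes were searched for such repeats, because a gene can be both a part of the pathway and a target of it. RefSeq windows on GRCm38.p6, from 250 bases before to 50 after a gene start, were at hand for 8 of the 9 genes, 14 windows in all. The half-site AGGTCA was searched along with the variant spelled AGTTCA, the variant spelled GGTTCA and the one spelled GGGTCA, in any pair and on both strands. Among the 14 windows 1 held a DR5, that of Rarb, and 0 held a DR4. Of all 32851 windows in the RefSeq table, 0.0974% held a DR5 and 0.0822% a DR4. Of the other retinoid genes described below, Cyp26a1, a retinoic acid-degrading enzyme, held a DR5. The 4 windows below show the 2 with a DR5 and, for the genes that rose in mutants, Rara and Rbp4, the window with the most single half-sites. Capitals mark half-sites on either strand and, in the first 2 windows, the whole repeat with its spacer.
Rarb, chr14:16575427-16575726, minus strand: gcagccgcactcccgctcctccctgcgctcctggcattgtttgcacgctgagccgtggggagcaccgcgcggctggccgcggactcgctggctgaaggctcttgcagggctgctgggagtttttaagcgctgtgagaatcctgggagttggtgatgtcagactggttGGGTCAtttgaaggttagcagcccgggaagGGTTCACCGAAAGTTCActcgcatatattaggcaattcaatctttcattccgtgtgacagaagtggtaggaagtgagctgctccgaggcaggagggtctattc
Cyp26a1, chr19:37697558-37697857, plus strand: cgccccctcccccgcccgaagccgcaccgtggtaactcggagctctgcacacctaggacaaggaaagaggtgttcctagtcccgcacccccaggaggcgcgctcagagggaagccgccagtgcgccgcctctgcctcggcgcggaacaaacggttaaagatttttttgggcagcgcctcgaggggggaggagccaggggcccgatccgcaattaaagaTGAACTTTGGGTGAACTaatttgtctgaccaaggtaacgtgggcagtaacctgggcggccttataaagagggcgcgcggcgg
Rara, chr11:98939461-98939760, plus strand: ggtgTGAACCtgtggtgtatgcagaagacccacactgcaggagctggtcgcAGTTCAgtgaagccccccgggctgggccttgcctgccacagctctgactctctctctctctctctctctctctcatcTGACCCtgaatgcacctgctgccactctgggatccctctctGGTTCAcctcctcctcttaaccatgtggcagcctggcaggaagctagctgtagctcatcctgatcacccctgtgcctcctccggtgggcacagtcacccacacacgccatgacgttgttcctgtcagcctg
Rbp4, chr19:38125272-38125571, minus strand: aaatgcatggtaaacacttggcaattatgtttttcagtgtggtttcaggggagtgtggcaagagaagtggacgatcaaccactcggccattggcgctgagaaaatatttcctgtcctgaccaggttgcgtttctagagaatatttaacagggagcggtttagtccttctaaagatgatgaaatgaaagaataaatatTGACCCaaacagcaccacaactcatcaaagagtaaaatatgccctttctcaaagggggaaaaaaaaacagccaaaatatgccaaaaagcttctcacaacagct
The Rarb repeat, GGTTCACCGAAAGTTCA, lies on the coding strand 53 to 37 bases before the start. In Cyp26a1 the repeat reads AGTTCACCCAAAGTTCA on the opposite strand and lies 32 to 16 bases before the start. The Rara window holds 4 single half-sites and the Rbp4 window 1. Holding at least 1 is common, at 43.7% of all windows, while the share of windows with 4 was not counted. A match of letters is not a measured binding site, and the windows cover only the starts that RefSeq lists.

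Of the 7 libraries, totals ran from 10747169 to 13804734 counts. Levels are given as CPM, which are counts relative to a library's total after scaling by TMM factors. A count of 0 allows a level of up to 0.227 to 0.275 CPM on that scale, taken as 3 counts. A floor of this kind covers counting error only, since the cDNA was amplified without molecular identifiers. The intervals at 2 SE given below come from the fit and include the spread between libraries. Nothing in the labels says whether the animals were littermates, and p-values measure the spread between these 7 samples. By 4 Y-linked genes, control 4 and mutant 8 had 4 and 3 reads and the other libraries 5094 to 6644. The targeted gene, Thra, was at 105.5 to 125.5 CPM in controls and 77.6 to 96.3 CPM in mutants (log2 fold change -0.39, SE 0.11, edgeR adjusted p 0.0543). Counts per gene add up both alleles, so this does not test for the mutation. Markers of GABAergic neurons were present: Gad1, Gad2, Slc32a1, Dlx2 and Dlx5 were all detected, and 0 of the 6 tested markers of the list were called. The other 2 of the list, Dlx1 and Dlx6, were at 0 and lie wholly inside other genes. The list of 8 summed to 2154 to 2544 CPM in controls and 2127 to 2559 in mutants. Slc17a7, a glutamatergic marker, was also present, at 46.9 to 94.5 CPM in controls and 47.7 to 84.2 in mutants. In every library it was below Gad1 and Gad2 but above Slc32a1, Dlx2 and Dlx5.

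The tables leave out reads in places where gene spans overlap, on either strand. Of the protein-coding genes whose whole span lies inside genes of the opposite strand, 749 of 749 were at 0 in every library, and so were 325 of 325 inside genes of the same strand, against 24.7% of those that share no base with another gene. Among the 9 genes this touches Aldh1a1 and Rarb most, while Rara and Aldh1a2 share only 0.227% and 0.512% of their spans. Aldh1a1 shares 40% of its span with other genes. Rarb shares 2.44% of its span. Exons of other genes cover 38.4% of its exonic bases, at its far end, where exons of Top2b run on the opposite strand.

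Of the 9 genes, 5 had enough counts to be tested, namely Rara, Rarb, Rarg, Aldh1a1 and Rbp4. Rara and Rbp4 were higher in mutants, by 1.90-fold and 1.66-fold, at an edgeR adjusted p under 0.05, and 0 were lower. Over all 16448 tested genes 9.42% were called, 4.63% higher and 4.78% lower. Rara and Rbp4 were also the 2 called members in 15 alternative analyses, in which 12.1% (DESeq2), 19.1% (limma-voom), 9.43% (RLE scaling), 6.28% (no filter), 9.73% (a filter at 1 CPM), 9.38% (no robust estimation), 16.7% (an offset from genomic length) and 8.53% (without control 4 and mutant 8) of all genes were called. Leaving out controls 1, 2, 3 and 4 in turn gave 12.5%, 6.44%, 6.25% and 14.5%, and leaving out mutants 6, 7 and 8 gave 4.55%, 4.35% and 4.86%. Counting all genes with a read, 3 of the 9 members showed no overlap between the groups, beside 15.2% of such genes. The other 4, Aldh1a2, Aldh1a3, Cyp26b1 and Crabp1, had at most 17 reads in any library.

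**Figure D1:**
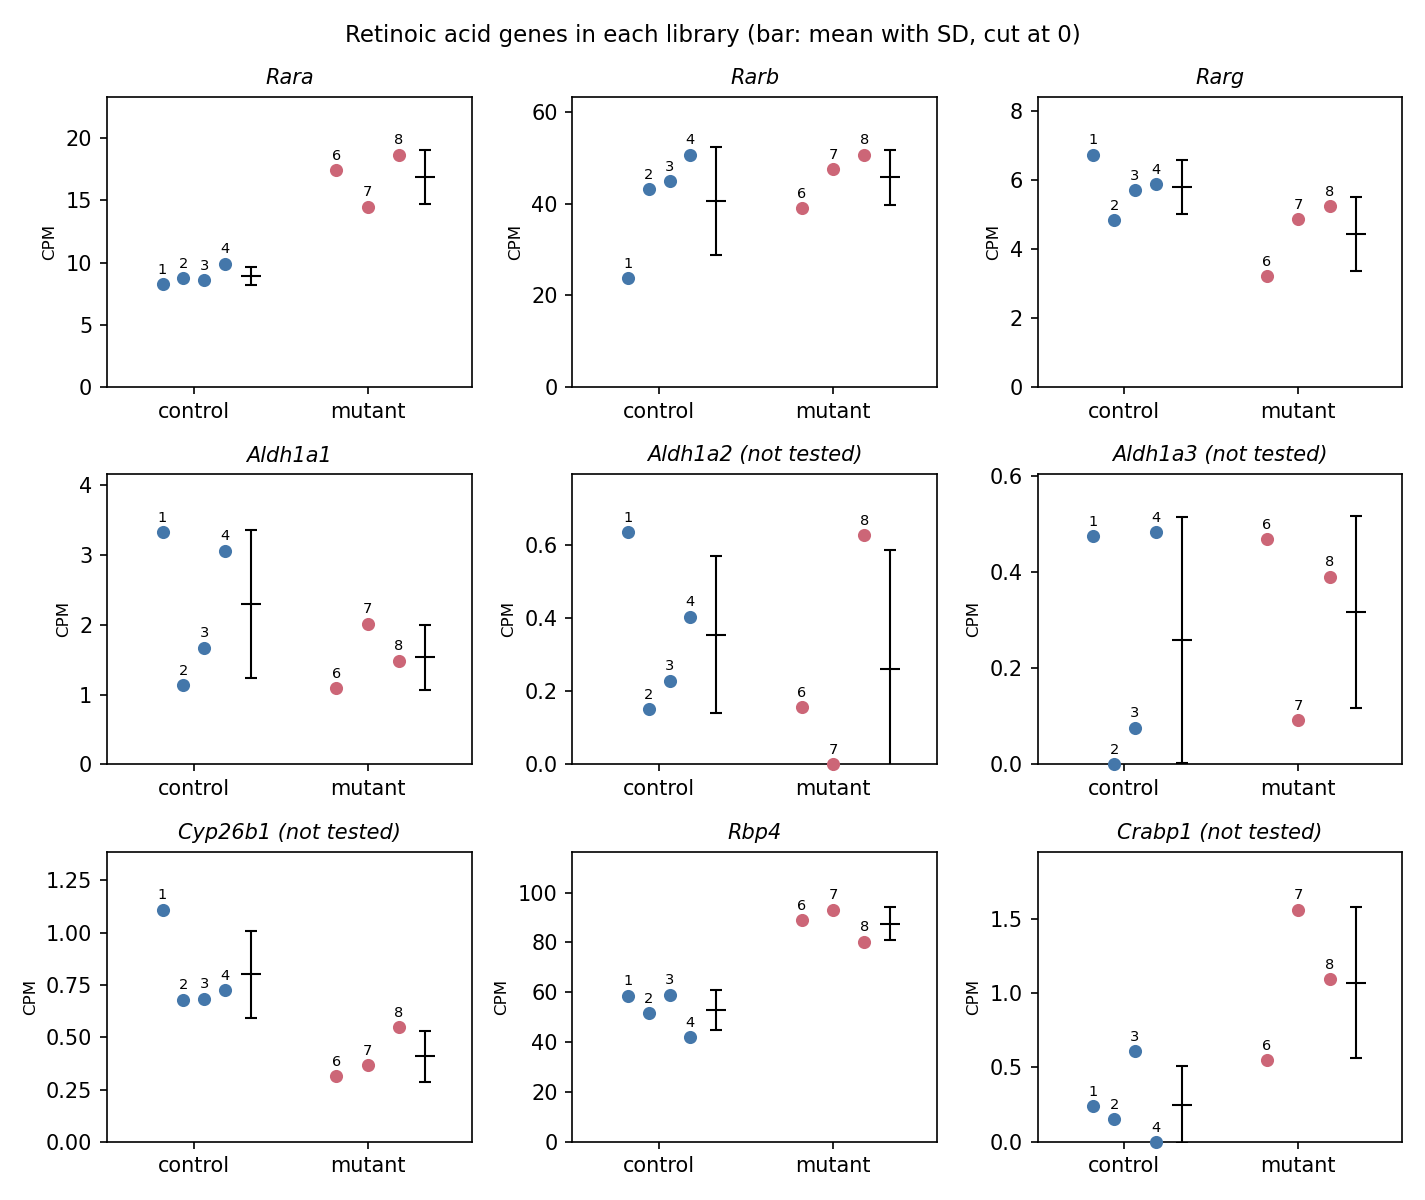
Level of each of the 9 genes in every library, in CPM on a linear axis from 0, with the library number at each point and the mean with its SD beside it (4 controls, 3 mutants). The mutants lie above all controls for Rara and Rbp4 and below all controls for Cyp26b1, while the groups overlap in the other 6 genes.

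Rara encodes RARα, the most widely expressed of the retinoic acid receptors. Its 4 controls were at 8.25, 8.77, 8.60 and 9.92 CPM, and mutants 6, 7 and 8 at 17.4, 14.5 and 18.7 CPM. Every mutant was above every control, and the lowest mutant, 7, was still well over the highest control, 4. Means were 8.88 ± 0.724 (SD, n = 4) and 16.9 ± 2.15 CPM (SD, n = 3). The log2 fold change was 0.93 with an SE of 0.16 (adjusted p 0.00361, edgeR). The groups failed to overlap in 22% of all tested genes. These values rested on 104 to 123 reads per control and 158 to 239 per mutant. In sorted bulk nuclei a higher level in each nucleus and a larger share of nuclei that express the gene cannot be told apart, here and below.

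Rara (ENSMUSG00000037992.16, GRCm38 chr11:98927818-98974942, plus strand) lies 158.8 kb from Thra on the same chromosome. The genotype is written as an allele of Thra. If the mutation lies at that locus, an effect of the allele on its neighbourhood and an effect of the receptor protein cannot be told apart for Rara. Between both genes 5 others were tested and 2 were called, both higher, beside 9.42% called and 4.63% called higher over all tested genes. They are named here after their values were seen. Casc3, a subunit of the exon junction complex, was higher by 0.61 on the log2 scale (SE 0.10, adjusted p 0.00257), and Rapgefl1 by 0.40 (SE 0.11, adjusted p 0.0349). Rapgefl1 lost its call on leaving out control 2 (0.37, adjusted p 0.110), control 3 (0.44, adjusted p 0.0606), mutant 6 (0.40, adjusted p 0.114), mutant 7 (0.37, adjusted p 0.158) or mutant 8 (0.43, adjusted p 0.103). Msl1 (0.52), Wipf2 (-0.44) and Cdc6 (0.57) were not called, with adjusted p-values of 0.214, 0.0578 and 0.621. Of the called genes in the interval, Rara had the largest difference.

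**Figure D2:**
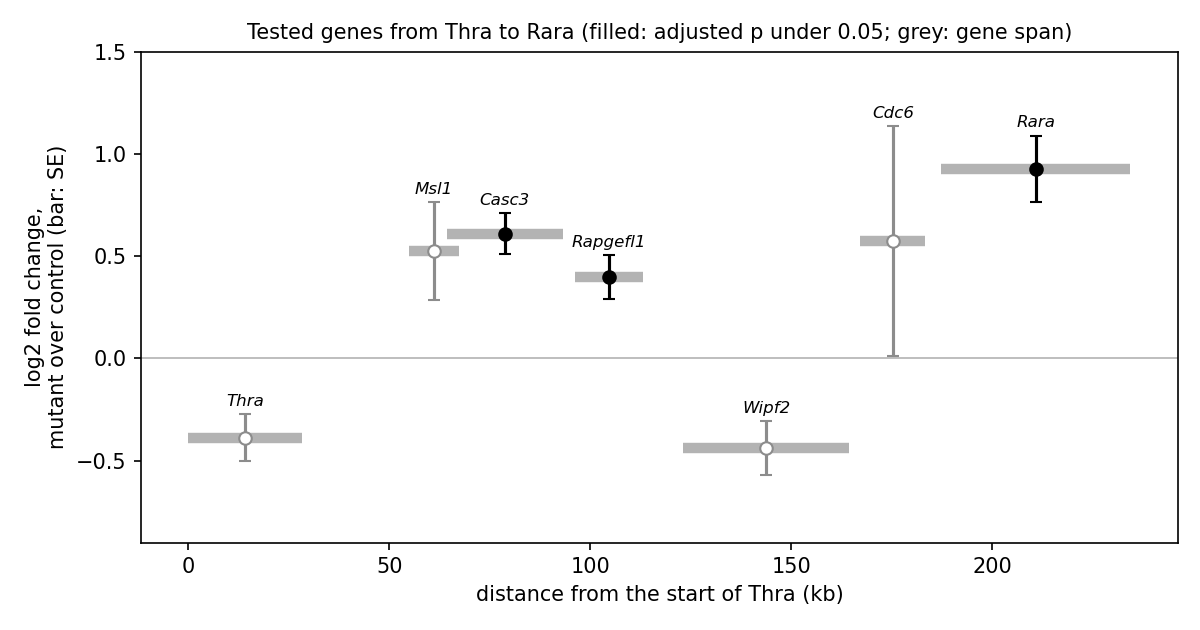
Log2 fold change of mutant over control (points, with SE) against distance from the start of Thra in kb for the 7 tested genes from Thra to Rara; grey bars are gene spans and filled points have an adjusted p under 0.05. Casc3, Rapgefl1 and Rara are filled and lie above 0, while Thra and Wipf2 lie below 0 and are open.

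Rarb encodes RARβ, itself a classical target of retinoic acid through the repeat shown above. The controls were at 23.7, 43.2, 44.9 and 50.7 CPM and the mutants at 39.0, 47.6 and 50.8 CPM. The groups overlapped, and control 1 was far below the other 6 libraries. Control 1 also had fewer counts in long genes in general: over the 2529 tested genes with a span over 100 kb its median log2 deviation from the mean of the 7 libraries was -0.35, against 0.36 in control 4, and Rarb spans 388 kb. The part of gene length in the low Rarb value of control 1 was not tested. The log2 fold change of Rarb was 0.17 (SE 0.21, adjusted p 0.704; from -0.25 to 0.59 at 2 SE on either side), it was -0.01 without control 1, and it was 0.18 with an offset from genomic length in the fit.

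Rarg encodes RARγ. It stood at 6.74, 4.84, 5.71 and 5.89 CPM in controls and at 3.21, 4.87 and 5.24 CPM in mutants. Mutant 6 was below all controls and the other 2 mutants were among them. On the log2 scale the difference was -0.39 (SE 0.24, adjusted p 0.391), from -0.86 to 0.09 at 2 SE on either side. Set against each other within a library, which removes any scaling, there were 1.22 to 1.81 Rara reads per Rarg read in the 4 controls and 2.98 to 5.44 in the 3 mutants. This ratio did not overlap between groups. It was formed after the values had been seen and carries no test.

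Among the genes for supply and binding, Rbp4 was the most abundant. RBP4 is the plasma carrier of retinol, made mainly by liver, and its gene is also active in subsets of cortical neurons. The controls were at 58.6, 51.5, 59.1 and 42.1 CPM and the mutants at 89.0, 93.2 and 80.2 CPM. All 3 mutants lay above all 4 controls, among which control 4 was lowest. Means were 52.8 ± 7.94 (SD, n = 4) and 87.5 ± 6.61 CPM (SD, n = 3). On the log2 scale the mutants were 0.73 higher with an SE of 0.13 (adjusted p 0.00405, edgeR), from 522 to 776 reads per control and 1015 to 1138 per mutant. Rbp4 (ENSMUSG00000024990.13, chr19:38116629-38125281, minus strand) shares no base with another gene.

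Of 6 markers of GABAergic classes 2 were called, Sst and Pvalb, beside 9.42% of all tested genes. The other 4 were not called (adjusted p 0.107 to 0.864). Sst, the neuropeptide of somatostatin neurons, was at 218.8 to 331.5 CPM in controls and 429.7 to 565.8 CPM in mutants, a log2 fold change of 0.84 (adjusted p 0.00682), close in size to that of Rbp4. Control 4 was the lowest of the controls and mutant 7 the highest of all libraries for both genes. Mutant 6 was above mutant 8 for Rbp4 and below it for Sst. Controls 1 and 3 were close for Rbp4, at 58.6 and 59.1 CPM, and control 1 was the highest control for Sst. Pvalb, the marker of parvalbumin neurons, was at 35.7 to 47.8 CPM in controls and 1.29 to 2.58 CPM in mutants. The part of these markers in the Rara and Rbp4 results was not tested. Markers of other cells gave 3 called genes of 51 tested, which is no larger a share than the 9.42% called over all tested genes. They were Rgs9 of the striatal list (log2 fold change 0.81), Sox9 of the astrocyte list (1.37) and Mog of the oligodendrocyte list (0.93), all higher. Each of the 7 lists holds 8 markers, and the summed levels overlapped between groups in all 7. Astrocyte markers summed to a control range of 147.5 to 268.7 CPM and a mutant range of 163.1 to 194.1, oligodendrocyte markers to 165.3 to 202.5 and 184.4 to 217.8, and microglial markers to 68.6 to 85.9 and 84.2 to 90.2. Glutamatergic markers summed to 80.4 to 148.0 and 85.9 to 139.4 CPM, striatal markers to 180.3 to 308.6 and 289.2 to 367.0, and meningeal markers to 7.92 to 12.2 and 5.88 to 9.38. Endothelial markers summed to 57.2 to 123.4 and 61.9 to 87.5 CPM, with 8 of 8 below 0 in log2 fold change and 0 called. Gfap, P2ry12 and Ogn were at 0 in all libraries, and each lies wholly inside other genes.

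Crabp1 encodes the cellular retinoic acid-binding protein 1. Controls 1 to 4 had 3, 2, 8 and 0 reads of it, and mutants 6, 7 and 8 had 7, 17 and 14. In CPM the controls reached 0.61 and the lowest mutant was at 0.55, so the groups just overlapped. It was too low for the main test. With no filter on low counts, where 6.28% of 27102 genes were called, its log2 fold change was 2.03 (SE 0.68) and its adjusted p 0.0632.

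The 3 synthesis enzymes were all scarce in these nuclei. Aldh1a1, which in the brain is best known from dopamine neurons, was at 3.33, 1.13, 1.67 and 3.06 CPM in controls and 1.10, 2.02 and 1.49 CPM in mutants. Controls 1 and 4 were above all mutants and controls 2 and 3 among them. The log2 fold change was -0.59 (SE 0.42, adjusted p 0.466), and from -1.43 to 0.25 at 2 SE on either side. Aldh1a2, the main enzyme of the meninges, had 2 to 8 reads in controls and 0 to 8 in mutants. Aldh1a3 had 0 to 6 reads in controls and 1 to 6 in mutants. For both, the groups overlapped almost fully, and a difference was not detectable at this depth.

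Cyp26b1 encodes the main retinoic acid-degrading enzyme of the brain. The controls had 14, 9, 9 and 9 reads and the mutants 4, 4 and 7, or 1.11, 0.68, 0.69 and 0.73 CPM against 0.31, 0.37 and 0.55 CPM. All 3 mutants were below all 4 controls. Among the genes with a count that were too low to test, 4.84% showed no overlap between groups, 1.96% with all mutants below. With no filter on low counts the log2 fold change was -0.94 (SE 0.61, adjusted p 0.499), so the difference did not pass the test.

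Compared per length, the order of the genes depended on which length was used. By the overlap counts above, reads were assigned over whole gene spans, introns included, so exonic length is not the length that was counted over. The exon scale raises genes with long introns, such as Rarb with its span of 388 kb. Of the exonic bases of Rarb at least 38.4%, those under exons of other genes, could not be counted. The order per kb of exons is therefore given for comparison only. Per kb of exons, the control means were 39.3 ± 5.91 CPM for Rbp4 (SD, n = 4), 7.72 ± 2.23 for Rarb, 2.04 ± 0.166 for Rara and 1.36 ± 0.183 for Rarg. The ranges of these 4 genes did not overlap in controls. Aldh1a1 (0.466 ± 0.216), Crabp1 (0.311 ± 0.323), Aldh1a2 (0.157 ± 0.0948), Cyp26b1 (0.150 ± 0.0388) and Aldh1a3 (0.0561 ± 0.0557) followed. Neighbours in this order overlapped in their ranges over the controls, except that all controls were higher for Cyp26b1 than any was for Aldh1a3. Per kb of span not shared with another gene, which also covers introns, Rbp4 stayed first (6.11 ± 0.918) and the receptors came in the order Rarg (0.257 ± 0.0346), Rara (0.189 ± 0.0154) and Rarb (0.107 ± 0.0310). In mutants the mean per kb of that span was 0.359 ± 0.0457 CPM for Rara (SD, n = 3) and 0.197 ± 0.0479 for Rarg, the reverse of the order in controls. Per kb of exons Rara was below Rarb in both groups.

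**Figure D3:**
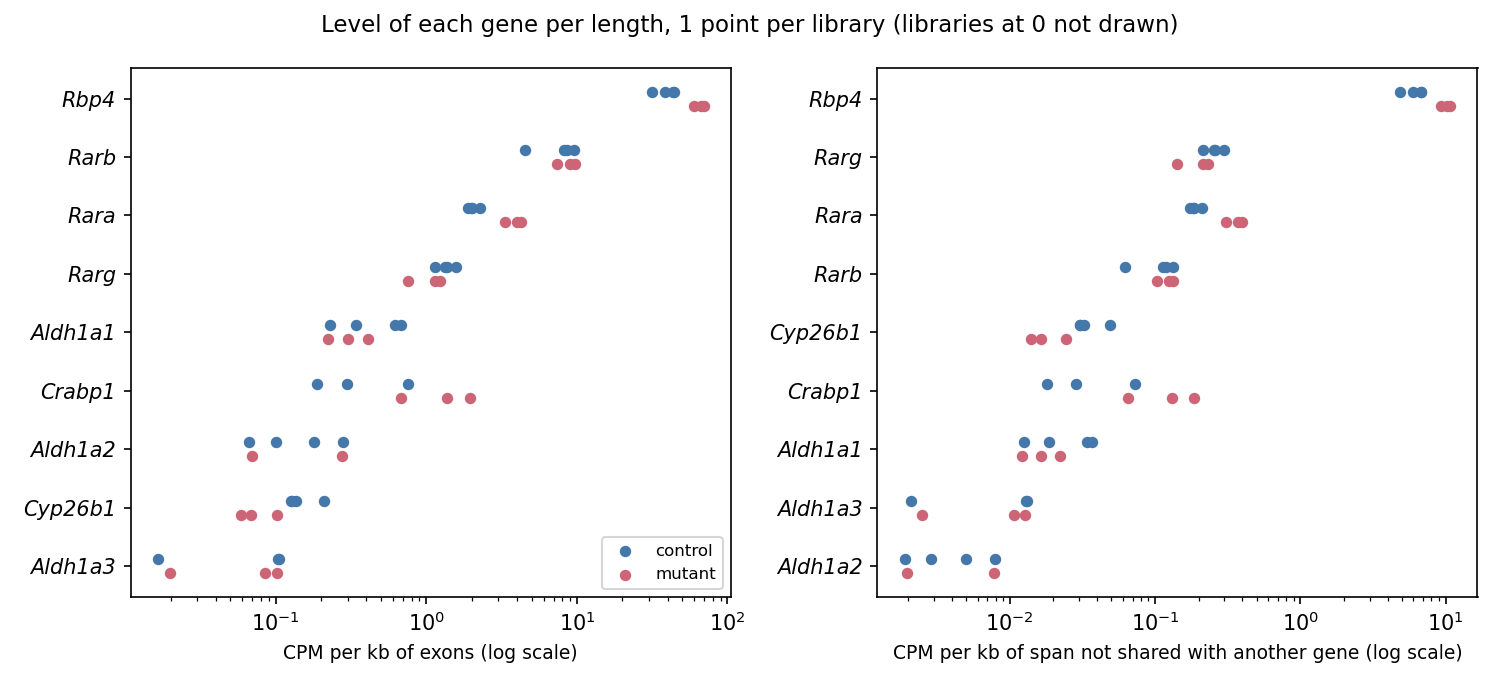
CPM per kb of exons (left) and per kb of span not shared with another gene (right), both on a log axis, with 1 point per library above 0 and the genes ordered by their control mean. Rbp4 leads on both scales, at 39.3 and 6.11 in controls, while the 3 receptors change order between them.

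The rest of the pathway was followed through 48 further genes in 5 lists, of which 27 were tested. In edgeR's test 8 of the 27 were called, 3 higher and 5 lower in mutants, beside 9.42% of all tested genes. Of the 3 higher, 1, Lrp2, passed the filter on low counts only through the mutants. The median log2 fold change of the 27 was -0.04, and that of all tested genes -0.01. The number called depended on single libraries. It was 2 to 10 with 1 library left out, namely 4 without control 2, 5 without control 3, 2 without mutant 6, 3 without mutant 7 and 2 without mutant 8. Without both libraries that lacked Y-linked reads, control 4 and mutant 8, 5 were called.

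Retinol uptake and storage had 4 tested genes of 10, with a median of 0.25 and 1 call. The median was 0.43 without control 1, 0.090 without control 2, 0.16 without control 3 and 0.59 with limma-voom. Lrp2, also called megalin, an endocytic receptor that takes up the RBP4-retinol complex, was at 0.16, 0.53, 1.14 and 0.48 CPM in controls and 2.58, 2.57 and 1.64 CPM in mutants. The groups did not overlap, and Lrp2 rose by 1.94 on the log2 scale (SE 0.48, adjusted p 0.0244) on 2 to 33 reads per library. It had 2 to 15 reads per control and 21 to 33 per mutant, and passed the filter on low counts only through the mutants. Its test is therefore not independent of the group where Lrp2 was high. Its call was lost on leaving out control 2 (1.89, adjusted p 0.0673), mutant 6 (1.83, adjusted p 0.112), mutant 7 (1.85, adjusted p 0.109) or mutant 8 (2.13, adjusted p 0.0518). Stra6, the membrane receptor for RBP4, had a log2 fold change of 0.20 and was not called; other genes overlap 61.2% of its span. Lrat, which stores retinol as esters, was listed at 0 in every library and its whole span is shared with other genes, so its level is not measured here.

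Of the 16 genes that convert retinol and retinal into each other, 9 were tested, with a median of 0.01 (-0.041 to 0.046 without single libraries) and 1 call. Rdh12, a retinal reductase best known from photoreceptors, was at 3.09, 3.93, 3.81 and 4.11 CPM in controls and 7.28, 6.15 and 8.68 CPM in mutants. The groups did not overlap, and Rdh12 rose by 0.98 on the log2 scale (SE 0.22, adjusted p 0.0141). The call was lost on leaving out mutant 6 (0.99, adjusted p 0.0576) or mutant 8 (0.85, adjusted p 0.0907), or the libraries that lacked Y-linked reads (0.89, adjusted p 0.0646). Rdh10, the main enzyme for the oxidation of retinol to retinal, stood at 0.02 (SE 0.18, adjusted p 0.969), and Dhrs3, which turns retinal back into retinol, at -0.35 (SE 0.27, adjusted p 0.495).

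Among carriers and clearance genes 3 of 6 were tested. Fabp5, a fatty acid-binding protein that can also carry retinoic acid, rose from 12.3 to 16.0 CPM in controls to 18.7 to 22.7 CPM in mutants (log2 fold change 0.59, SE 0.15, adjusted p 0.0284). Cyp2s1, a cytochrome P450, fell from 5.89 to 8.17 CPM in controls to 1.95 to 3.86 CPM in mutants (log2 fold change -1.43, SE 0.27, adjusted p 0.00587), and was called in all 7 fits that left out 1 library. Fabp5 lost its call on leaving out control 2 (0.57, adjusted p 0.0777), control 3 (0.58, adjusted p 0.0807), mutant 6 (0.66, adjusted p 0.0568), mutant 7 (0.58, adjusted p 0.109) or mutant 8 (0.53, adjusted p 0.140), or the libraries that lacked Y-linked reads (0.47, adjusted p 0.138). Cyp1b1, at -1.74 (SE 0.71), was not called (adjusted p 0.165), with 34 reads in control 2 and 3 to 14 in the other libraries. It had 3 to 6 reads per mutant and passed the filter on low counts only through the controls. The test of Cyp1b1 is therefore not independent of the group where it was high.

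**Figure D4:**
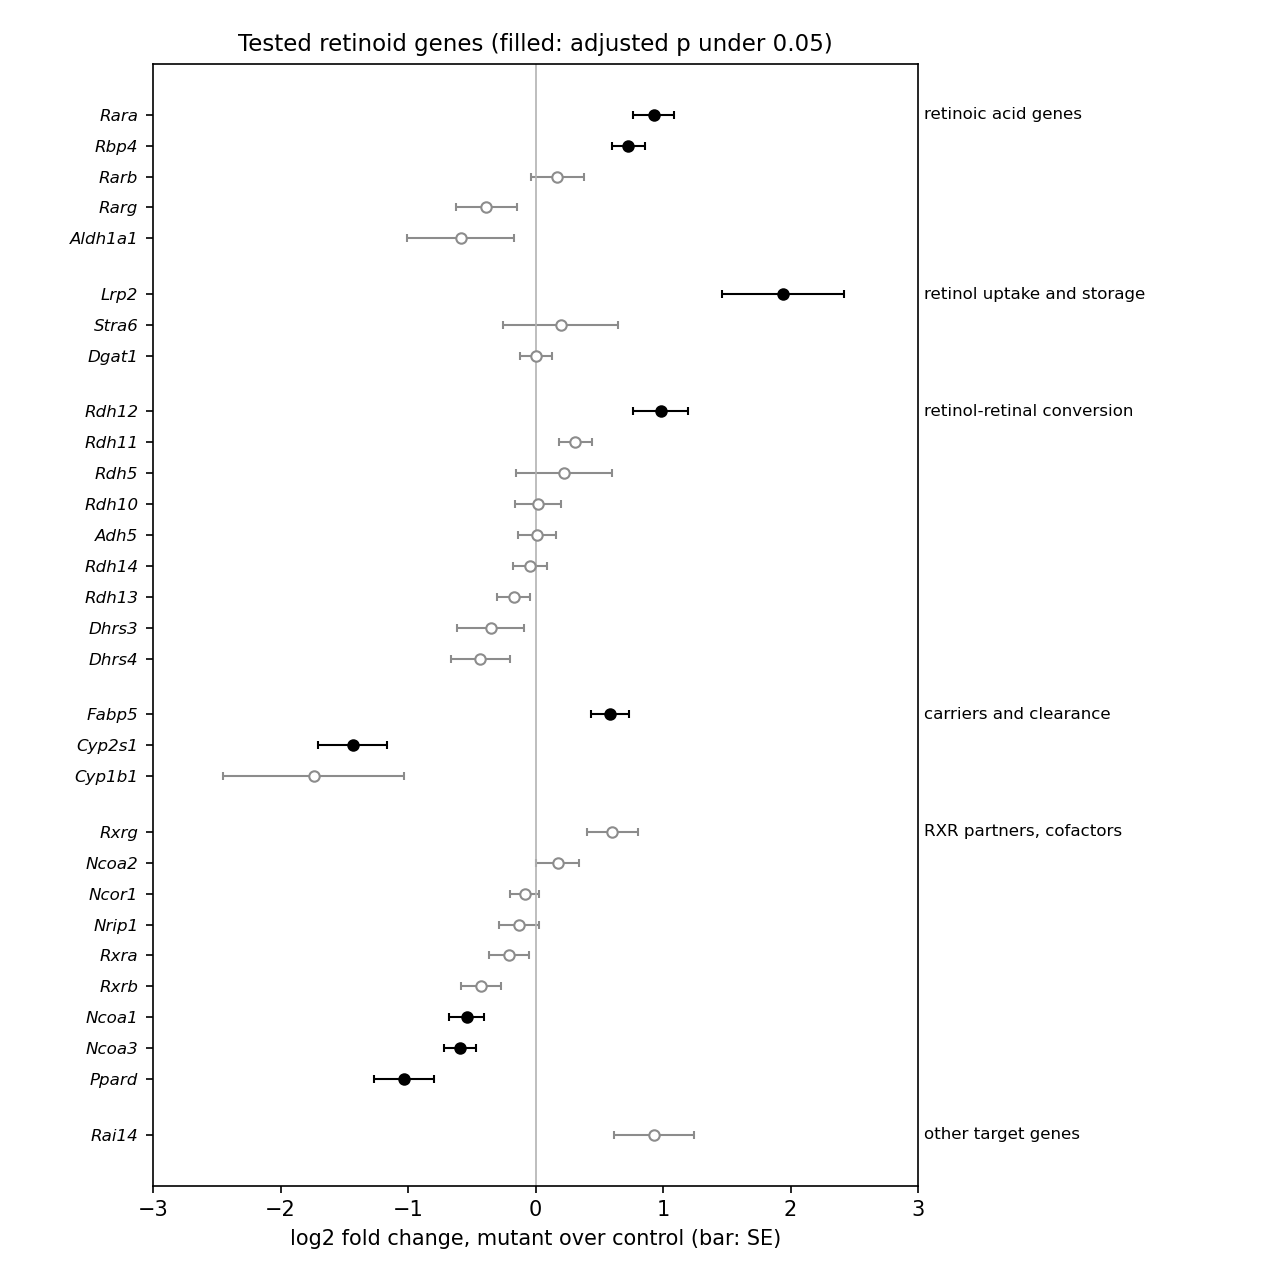
Log2 fold change of mutant over control with its SE for the 5 tested genes of the 9 and the tested genes of the 5 further lists that are reported here, grouped by role; genes in 2 lists are drawn once. Filled points have an adjusted p under 0.05; they include Rara, Rbp4, Lrp2, Rdh12 and Fabp5 above 0 and Cyp2s1, Ncoa1, Ncoa3 and Ppard below 0.

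All 10 genes of the RXR partners and receptor cofactors were tested, with a median of -0.32, and 4 were called, all lower, beside 9.42% called and 4.78% called lower over all tested genes. Ppard, a nuclear receptor of fatty acids that pairs with RXR, fell from 21.2 to 49.9 CPM in controls to 15.5 to 18.5 CPM in mutants, by -1.03 on the log2 scale (SE 0.23, adjusted p 0.0157). The coactivators Ncoa1 (-0.54, SE 0.14, adjusted p 0.0282) and Ncoa3 (-0.59, SE 0.12, adjusted p 0.00992) fell as well. The groups did not overlap in Ppard, Ncoa1 or Ncoa3. Leaving out mutant 6 ended the call of Ncoa3 (-0.49, adjusted p 0.0706). Ppard was not called without mutant 6 (-1.10, adjusted p 0.0586), mutant 7 (-0.97, adjusted p 0.0916) or mutant 8 (-1.01, adjusted p 0.0798). Ncoa1 lost its call without control 2, control 3 or any 1 mutant (-0.57 to -0.51, adjusted p 0.0857 to 0.149). It also lost it without the libraries that lacked Y-linked reads, at an adjusted p of 0.0796.

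The RXR genes themselves, which encode the shared partners of RAR and thyroid hormone receptors, were not called. Rxra ranged over 15.4 to 21.8 CPM (controls) and 15.4 to 18.1 CPM (mutants) (-0.21, adjusted p 0.498). Rxrb was at 50.3 to 81.3 and 43.2 to 49.5 CPM (-0.43, adjusted p 0.116), and Rxrg at 5.81 to 8.60 and 9.31 to 12.4 CPM (0.60, adjusted p 0.0858). For Rxrb and Rxrg the groups did not overlap, in opposite directions.

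Genes that retinoic acid is known to induce were the last list, and 5 of its 12 were tested, with 0 called by edgeR. Their median was 0.20, with 3 higher and 2 lower in sign, and Stra6, Dhrs3 and Nrip1 among them also stand in another of the lists. The median was 0.43 without control 1, 0.088 without control 2, 0.022 without control 3, 0.32 without mutant 7 and -0.12 without mutant 8. Rai14 (0.93, SE 0.32, adjusted p 0.0930) and Nrip1 (-0.13, SE 0.16, adjusted p 0.698) were the best counted. Of the 5, 1, Rai14, had an unadjusted p under 0.05 in edgeR's test, beside 3709 of all 16448 tested genes. Control 4, at 12.7 CPM of Rai14, lay among the mutants, at 12.1 to 15.2 CPM. Cyp26a1, whose DR5 is shown above, had 0 reads in all 4 controls and 0 to 2 in mutants, under the 3 counts taken as the floor. Hoxb1 was at 0 in every library, although it shares no base with another gene. Rarb and Cyp26b1, described above, are themselves induced by retinoic acid in many cells.

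The tested genes most like the 2 called members were sought among those with a mean of at least 5 CPM, by the root-mean-square difference of mean-centred log2 CPM over the 7 libraries. For Rara they were Rdh12 (0.087), Doc2b (0.088), a calcium sensor of vesicle release, and C77080 (0.092), with log2 fold changes of 0.98, 0.78 and 0.89. For Rbp4 they were Zmym3 (0.049), Nrbp2 (0.065) and Pfkl (0.066), a phosphofructokinase of glycolysis, with log2 fold changes of 0.77, 0.67 and 0.69. Rdh12 reached the mean of 5 CPM only through the mutants, with a mean of 3.74 CPM in controls and 7.37 CPM in mutants. The likeness includes the difference between the groups, which had chosen Rara and Rbp4 for this search.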

How the data were processed

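Each deposited table lists raw counts, 1 whole number for every gene, with no header. Per the submitters' processing notes Bowtie2 2.5.3 and the builds mm10 and GRCm38 were used, with no role given. The counting program, annotation and strand setting were not given in the sources used here. Per the labels' protocols, cDNA came from SMART-Seq v4 and libraries from Nextera XT, read as paired ends. All 55450 gene identifiers matched GENCODE M21 (GRCm38), which gave symbols and coordinates.

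The fit used edgeR 4.0.16 under R 4.3.3 on 7 libraries. The identical tables of mutants 7 and 10 entered once, under the number 7, and which animal they came from is not known. The filter was filterByExpr (least count 10, least total 15), and libraries were scaled by TMM and tested by a quasi-likelihood fit with group as the only term, two-sided, with Benjamini-Hochberg adjustment over 16448 genes; a gene was called under 0.05. The SE is the log2 fold change divided by the square root of F. Alternatives used DESeq2 1.42.0, limma 3.58.1 voom with sample weights, RLE scaling, other filters, non-robust dispersions, an offset from genomic length, and fewer libraries. Named were the 9 genes, Thra, the called genes of the 5 pathway lists and the 3 genes most like each called one; others are said to be named after their values were seen, or stand beside a result as markers or as uncalled list members. The genes and lists were chosen with earlier results of these data known. Some genes of these lists entered the counts but are not reported here by name.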

Additional observations from a re-analysis of the deposited data

Results flagged for a closer look

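Among the 4 controls, 29 values were searched for 1 control lying apart: the 9 genes, the called genes named with them, Thra and the summed marker lists. The 3 mutants are too few for this. In 1 value, where chance gives about 1 in 20 (1.45 of 29), a control stood apart. Control 1 had 1.11 CPM of Cyp26b1, where the other controls had 0.680 to 0.726 CPM, with a gap of 0.894 of the whole range. The difference is 14 reads against 9 in each of the others, and the mutants lie below the other 3 controls as well.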

How the results depend on the processing

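Rara and Rbp4 were the 2 called genes of the 9 in all 15 alternatives, 7 of which left out 1 library each. The log2 fold change of Rara ran from 0.85 to 1.03 and that of Rbp4 from 0.63 to 0.79 without single libraries, with adjusted p-values up to 0.0302 and 0.0342. Over the other 8 alternatives they ran from 0.90 to 0.96 and from 0.65 to 0.76. Rarg and Aldh1a1 kept their direction and were not called in any alternative. Rarb turned to -0.011 without control 1, the low end of a range up to 0.29 without single libraries, and was not called in any alternative. Over all alternatives the median of the tested target genes ran from -0.12 to 0.56 and that of the conversion genes from -0.083 to 0.046, both across 0; that of the uptake and storage genes ran from 0.090 to 0.59. The number of all genes called moved from 1549 to 3134 with limma-voom and to 2753 with the offset from genomic length, and from 734 to 2347 without single libraries. The pathway genes called were 8 in the main fit, 5 without the libraries that lacked Y-linked reads, and 2 to 10 without single libraries. The cause of these shifts was not tested. No paired analysis was possible because the labels do not link controls to mutants, so any pairing by litter stays unknown. Depth limited 4 of the 9 genes, which had too few reads for the main test.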
